A study of Mus musculus with 2 samples.

Results

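The genes described are 8 leukocyte adhesion genes: the β2 integrin family genes Itgal, Itgam, Itgax and Itgb2, the α4 integrin family genes Itga4, Itgb1 and Itgb7, and the selectin ligand gene Selplg. They were taken by symbol, and all 8 were found among the 32285 genes of both libraries. Brain cells of C57BL mice aged 8 to 13 weeks, in a model resembling neuromyelitis optica spectrum disorder (an autoimmune disease in which antibodies bind an astrocyte water channel), were profiled at 24 h by droplet single-cell RNA sequencing of transcript 3' ends. Cells lacking CD45, a surface protein of leukocytes, and cells carrying it were sequenced apart, and both groups share the model. Each subset gave 1 library. The sources used here state neither how many mice entered it nor how the model was made or the cells were separated, and no control library was analysed here. No test between groups was therefore possible, every interval given covers counting error only (95%), and every value describes the state at 24 h and not a response.

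An integrin is a pair of 1 α and 1 β subunit, and some subunits can pair with several partners. The β2 subunit (Itgb2) pairs in leukocytes with αL (Itgal, together LFA-1), αM (Itgam, together Mac-1, known as a microglia and myeloid surface marker) and αX (Itgax, a surface marker of dendritic cells), and these pairs bind ICAM proteins on vessel walls, complement fragments and other ligands. The α4 subunit (Itga4) pairs with β1 (Itgb1) as VLA-4, which binds VCAM-1 and fibronectin and is the target of natalizumab, a drug that keeps lymphocytes out of the brain, or with β7 (Itgb7) as the gut-homing receptor for MAdCAM-1. PSGL-1, the product of Selplg, must be decorated with sugars and sulfate before it binds selectins, so its transcript level is not its binding capacity. The transcripts counted here are not protein, isoforms were not resolved, and neither heterodimers nor the active state of an integrin were measured.

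In GRCm38 with the GENCODE M21 annotation, 3 of the α subunit genes lie on chromosome 7 on the plus strand, Itgal at 127296260 to 127335138, Itgam at 128062640 to 128118491 and Itgax at 128129547 to 128150657. Itgb2 lies on chromosome 10 at 77530252 to 77565708, Itga4 on chromosome 2 at 79255426 to 79333123 and Itgb1 on chromosome 8 at 128685654 to 128733200, all on the plus strand. Itgb7 lies on chromosome 15 at 102215995 to 102231944 and Selplg on chromosome 5 at 113818536 to 113832644, both on the minus strand. Itga4 overlaps Cerkl on the opposite strand, and Itgam overlaps the gene model Gm49368 on the same strand.

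The RefSeq promoter table (GRCm38.p6) held 5 of the 8 members, Itgam, Itgax, Itga4, Itgb1 and Itgb7. The 250 bases before the start are shown for 3 of them, because their transcripts followed different cell classes: Itgam myeloid cells, Itga4 lymphoid cells and pericytes, and Itgb1 every class. They read 5′ to 3′ on the plus strand, at chr7:128062390-128062639, chr2:79255176-79255425 and chr8:128685404-128685653. Capitals mark the motif GAGGAA, a core bound by the myeloid factor PU.1, or its reverse complement, and in Itga4 the reverse complement of TGTGGT, a core bound by RUNX factors.
Itgam: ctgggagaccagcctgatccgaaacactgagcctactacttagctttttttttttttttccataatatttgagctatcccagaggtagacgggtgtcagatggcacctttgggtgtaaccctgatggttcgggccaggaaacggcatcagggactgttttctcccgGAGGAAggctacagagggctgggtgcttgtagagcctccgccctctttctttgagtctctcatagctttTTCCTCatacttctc
Itga4: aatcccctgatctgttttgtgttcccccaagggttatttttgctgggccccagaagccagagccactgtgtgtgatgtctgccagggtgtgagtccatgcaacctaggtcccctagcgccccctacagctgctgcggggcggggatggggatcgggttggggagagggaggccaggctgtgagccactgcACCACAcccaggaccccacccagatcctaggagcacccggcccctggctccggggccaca
Itgb1: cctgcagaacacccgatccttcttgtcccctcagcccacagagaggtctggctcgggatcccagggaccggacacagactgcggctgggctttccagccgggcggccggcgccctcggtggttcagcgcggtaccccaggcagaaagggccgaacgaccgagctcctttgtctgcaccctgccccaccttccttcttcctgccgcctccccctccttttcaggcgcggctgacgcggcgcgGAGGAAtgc
Both strands were searched for these 2 motifs, which do not overlap in the windows shown. The window of Itgam held GAGGAA at 84 bases before the start on the plus strand and at 15 bases on the minus strand, that of Itgb1 held it at 9 bases on the plus strand, and that of Itga4 held TGTGGT at 60 bases on the minus strand. GAGGAA was present in 23.3% and TGTGGT in 14.0% of 32851 mouse promoter windows of this length, and neither was found in the windows of Itgax or Itgb7. Itgb1 stood out by its CG content, with 21 CG pairs against 5 or 6 in the other members and a median of 6 over all windows. A match is a description of letters and not of a binding site.

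The CD45-positive library kept 8433 of 8662 barcodes and a median of 6100 UMIs per cell, a UMI being the tag that lets each captured transcript be counted 1 time; its kept UMIs numbered 74107097. The CD45-negative library kept 12860 of 14524 barcodes with 82926190 UMIs and a median of 5413. Levels are counts per 1000000 UMIs of the same cells (CPM), and 25 barcodes occurred in both kept sets. Cell classes were rebuilt from markers with the 8 members and all adhesion genes named below left out of the clustering, and "-like" marks such a name. The CD45-positive library held 3052 microglia-like, 2634 T cell-like, 470 monocyte-like, 291 conventional dendritic, 202 natural killer (NK) and 177 type 2 innate lymphoid cell-like cells. In the CD45-negative library 118 cells (0.918%) were in named immune classes. Marker lists fitted most names: T cell markers summed to 6625 CPM in CD4 T cell-like cells and 65.2 in microglia-like cells, and microglia markers to 460 and 11630 CPM.

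Several sets of cells need care. Of the T cell-like cells, 563 had no clear subset; they had a median of 1062 UMIs, 75000 CPM of the nuclear RNA Malat1 against 35170 in CD4 T cell-like cells, and microglia markers at 1995 CPM. A further 841 cells with microglia markers at low UMIs and 366 cells that carried neutrophil and microglia markers together were left unnamed. The 35 neutrophil-like cells still held microglia markers at 6147 CPM. The monocyte-like class was named under only some of the settings tried, as given at the end. The regulatory T cell-like cluster of 68 cells had Foxp3 at 356 CPM but was led by Il13, Il2 and Ifng as well. As a background for the CD45-positive library, its 78 astrocyte-like cells (median 4300.5 UMIs) were used, in which the leukocyte integrins other than Itgb1 should be absent. Whether their leukocyte transcripts came from free RNA or from attached cells was not tested. They held Itgb7 at 28.6 CPM against 4.28 in microglia-like cells, and Tmem119 at 80.0 CPM against 26.5 in CD4 T cell-like cells. This background is therefore not a level shared by every class.

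In whole libraries, 7 of the 8 members were at least 2-fold higher in CD45-positive than in CD45-negative cells, and none was 2-fold lower. Among 18379 genes with at least 20 UMIs, 16.5% were at least 2-fold higher and 41.0% at least 2-fold lower, and the median log2 ratio was 5.85 for the members and -0.57 for all genes. The gate itself selects leukocytes, so this direction describes the sort. Itgb7 stood at 78.6 against 0.856 CPM (91.8-fold), Itgal at 68.8 against 0.808 CPM (85.2-fold) and Selplg at 730.5 against 11.2 CPM (65.35-fold). Itga4 was only 3.95-fold higher, at 83.5 against 21.1 CPM, and Itgb1 1.415-fold, at 282 against 199.6 CPM. With median-of-ratios scaling, which raised every log2 ratio of this comparison by 0.52, Itgb1 had a log2 ratio of 1.02 and so passed 2-fold. These are the members that brain cells other than leukocytes also transcribed. Whole-library sums cannot tell fewer cells of a type from less RNA per cell, so the classes are given next.

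**Figure D1:**
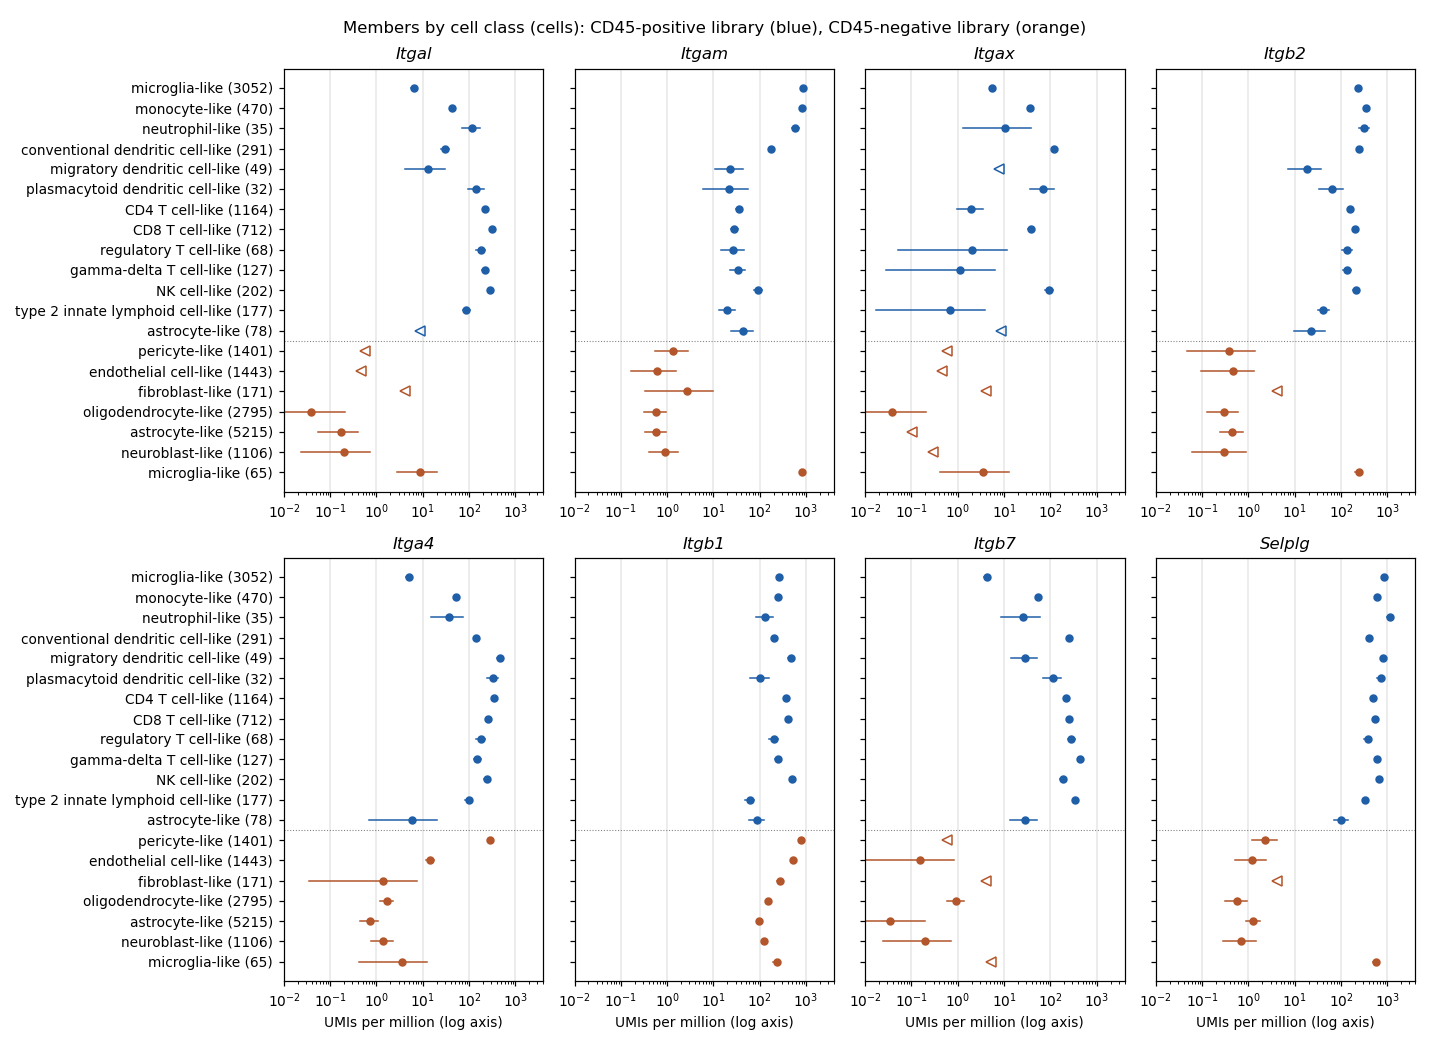
Level of each member in cell classes of the CD45-positive library (blue) and the CD45-negative library (orange), in CPM on a log axis, with the number of cells in brackets. Points are levels, lines 95% exact Poisson intervals, and open triangles mark the floor of 3 UMIs for classes with 0 UMIs. Itgal, Itga4 and Itgb7 sat high in lymphoid classes and low in microglia-like cells, Itgam did the opposite, and Itga4 and Itgb1 were high in pericyte-like cells.

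Within the CD45-positive library the α subunits of β2 divided by lineage. Itgal, whose product arrests lymphocytes on ICAM-1, was highest in the CD8 T cell-like class at 316 CPM (301 to 331) among classes with a subset name and 50 or more cells. NK cell-like cells followed at 281 CPM (251 to 314), CD4 T cell-like cells at 226 (214 to 238), gamma-delta T cell-like cells at 221 (191 to 254) and regulatory T cell-like cells at 178 (142 to 219.6). In this order the intervals of the CD8 and NK classes overlapped, as did those of CD4 with gamma-delta and of gamma-delta with regulatory T cell-like cells, while those of the NK and CD4 classes did not. Type 2 innate lymphoid cell-like cells lay lower at 87.2 CPM (72.7 to 103.7), 0.386 of the CD4 level (0.319 to 0.464). Microglia-like cells held 6.51 CPM (5.70 to 7.40), monocyte-like cells 42.9 (38.6 to 47.6), and the astrocyte-like cells had 0 UMIs, which allows up to 10.5 CPM. Neutrophil-like cells held 115 CPM (72.1 to 174) from 22 UMIs, and conventional dendritic cell-like cells 30.1 (24.2 to 36.9). The level of Itgal was thus higher in each T and NK class than in each myeloid class. The intervals of the small neutrophil-like and regulatory T cell-like classes overlapped, however. The microglial level was under the 10.5 CPM that the astrocyte-like cells allow.

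Itgam, the αM subunit, had the reverse order. Microglia-like cells held 874 CPM (864 to 884), monocyte-like cells 826 (807 to 846) and neutrophil-like cells 591 (487 to 711). Conventional dendritic cell-like cells held 176 CPM (161 to 191) and NK cell-like cells 92.3 (75.5 to 111.8). Astrocyte-like cells of the same library, which should lack it, held 42.9 CPM (24 to 70.7), and the CD4 and CD8 T cell-like classes lay at or under that, at 35.0 and 28.3 CPM. At least 1 Itgam UMI was seen in 91.8% of microglia-like, 14.2% of CD4 T cell-like and 16.7% of astrocyte-like cells. Median depths were 9457, 4876.5 and 4300.5 UMIs, so the T cell share does not stand out from the astrocyte-like share. NK cell-like cells were 2.15-fold (1.25 to 3.98) above the astrocyte-like cells.

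Itgax, the αX subunit known as CD11c, was highest in dendritic, NK and CD8 T cell-like classes among named classes of 50 or more cells. Conventional dendritic cell-like cells held 118 CPM (106 to 131), NK cell-like cells 92.3 (75.5 to 111.8) and CD8 T cell-like cells 37.4 (32.4 to 42.9). Monocyte-like cells held 36.3 CPM (32.4 to 40.6), within the interval of the CD8 class. The CD4 T cell-like class held 11 UMIs in all, 1.92 CPM (0.957 to 3.43), so the CD8 level was 19.5-fold higher (10.7 to 39.7). For the other 7 members the CD8 over CD4 ratio lay between 0.745 and 1.40. Microglia-like cells held 5.62 CPM (4.87 to 6.45), and 5.57% of them had an Itgax UMI. Astrocyte-like cells had 0 UMIs, which allows up to 10.5 CPM, so the microglial level was within what the background allows. Dendritic cells of the conventional class supplied 25.6% of the Itgax UMIs in the library, against 22.0% from monocyte-like, 14.4% from microglia-like and 14.4% from CD8 T cell-like cells.

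Itgb2, the shared β2 subunit, varied less. Monocyte-like cells held 345 CPM (333 to 358), conventional dendritic cell-like cells 239.6 (222 to 258), microglia-like cells 232.5 (227.5 to 237.5) and NK cell-like cells 211 (185 to 239.5). CD8 T cell-like cells held 198.5 CPM (187 to 211) and CD4 T cell-like cells 153.5 (144 to 164). The dendritic, microglial and NK intervals overlapped each other. Type 2 innate lymphoid cell-like cells stood apart among named classes of 50 or more cells at 41.9 CPM (32.0 to 53.8), 0.273 of the CD4 level (0.207 to 0.354), near the astrocyte-like background of 22.9 CPM (9.87 to 45.1).

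As UMIs in a 3' assay do not grow with transcript length but capture can differ between genes, shares of subunit UMIs are compared between classes only. Of the UMIs of Itgal, Itgam and Itgax together, Itgam made up 98.6% in microglia-like and 91.25% in monocyte-like cells. Itgal made up 85.9% in CD4 T cell-like and 82.8% in CD8 T cell-like cells. The Itgam levels in both T cell classes were at or under the astrocyte-like level given above. NK cell-like cells held 60.4% Itgal, 19.8% Itgam and 19.8% Itgax. Conventional dendritic cell-like cells held 54.3% Itgam, 36.4% Itgax and 9.29% Itgal.

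**Figure D2:**
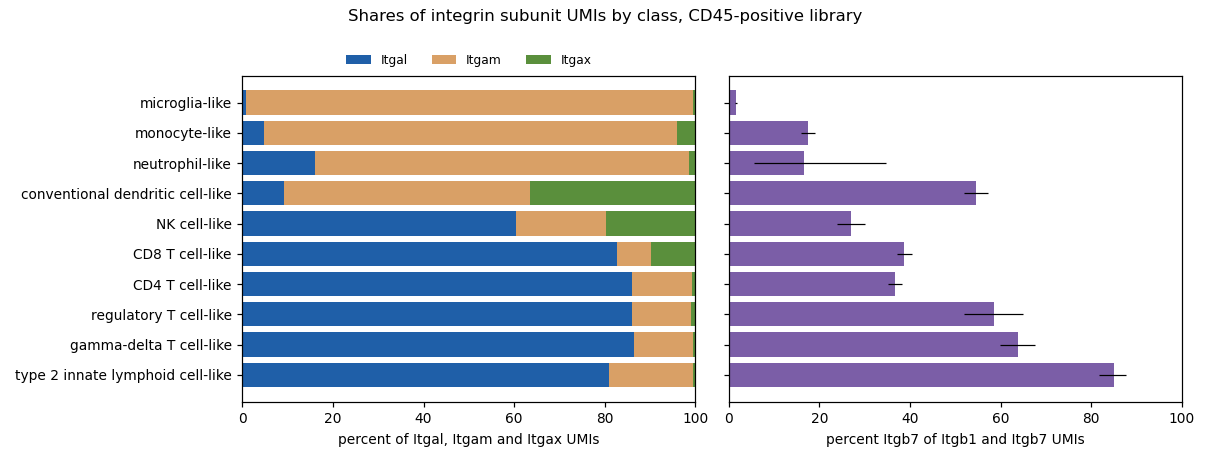
Left, percent of the summed UMIs of Itgal, Itgam and Itgax that came from each gene in classes of the CD45-positive library; right, percent of Itgb1 and Itgb7 UMIs that came from Itgb7, with 95% exact binomial intervals. Itgam took 98.6% in microglia-like and Itgal 85.9% in CD4 T cell-like cells, and Itgb7 ranged from 1.59% in microglia-like to 84.9% in type 2 innate lymphoid cell-like cells.

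Itga4, the α4 subunit that natalizumab targets in patients, was a lymphocyte and dendritic transcript among leukocytes. Among named classes of 50 or more cells it was highest in CD4 T cell-like cells at 345 CPM (330 to 361), then CD8 T cell-like cells at 257 (244 to 271) and NK cell-like cells at 243 (215 to 273), of which the last 2 overlapped. Regulatory T cell-like cells held 178 CPM (142 to 219.6), gamma-delta T cell-like cells 152 (127 to 179) and conventional dendritic cell-like cells 142 (129 to 156), with overlapping intervals. Type 2 innate lymphoid cell-like cells held 98.1 CPM (82.7 to 115.6), monocyte-like cells 53.2 (48.4 to 58.4) and microglia-like cells 5.11 (4.40 to 5.91), which was within the astrocyte-like interval of 0.692 to 20.65. The level in monocyte-like cells was 10.4-fold (8.75 to 12.4) that in microglia-like cells. Itgam differed little between these classes, with a ratio of 0.945 (0.921 to 0.970). The monocyte-like class carried microglia markers at 6581 CPM beside monocyte markers at 4799, and Tmem119 at 433 CPM against 710.2 in microglia-like cells, and their part in its member levels was not tested.

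Itgb1, the β1 subunit that most cells use to hold on to matrix, was present in every class. NK cell-like cells held 506.5 CPM (466 to 549.6), CD8 T cell-like cells 410.3 (393 to 428) and CD4 T cell-like cells 377 (361 to 393). Microglia-like cells held 265 CPM (259.6 to 270.3), monocyte-like cells 251 (240.1 to 262) and gamma-delta T cell-like cells 247 (215 to 282), with overlapping intervals. Type 2 innate lymphoid cell-like cells were again lowest at 61.1 CPM (49.05 to 75.2), 0.162 of the CD4 level (0.130 to 0.200). Astrocyte-like cells held 85.75 CPM (57.9 to 122) in this library and 98.25 CPM in the CD45-negative library, so they give no background for Itgb1.

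Itgb7, the gut-homing β7 subunit, had its highest level in gamma-delta T cell-like cells at 434.5 CPM (392 to 480.1). Type 2 innate lymphoid cell-like cells followed at 344 CPM (314 to 375), then regulatory T cell-like cells at 283 (238 to 335), CD8 T cell-like cells at 259 (246 to 273) and conventional dendritic cell-like cells at 249.5 (232 to 268). CD4 T cell-like cells held 218 CPM (206 to 230.3), NK cell-like cells 186 (162 to 213), monocyte-like cells 52.9 (48.1 to 58.0) and microglia-like cells 4.28 (3.62 to 5.01). Astrocyte-like cells held 28.6 CPM (13.7 to 52.6), more than the microglia-like cells. Itgb7 was higher in type 2 innate lymphoid cell-like than in CD4 T cell-like cells, by 1.58-fold (1.42 to 1.75), while the ratios of the other 7 members lay between 0.162 and 0.652; the Itgax ratio there rests on 1 and 11 UMIs. Of the Itgb1 and Itgb7 UMIs together, Itgb7 made up 84.9% there, 63.8% in gamma-delta T cell-like, 58.6% in regulatory T cell-like, 36.6% in CD4 T cell-like and 26.9% in NK cell-like cells.

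In single CD4 T cell-like cells with an Itga4 UMI, 64.5% also had an Itgb1 UMI and 54.6% an Itgb7 UMI, against 53.6% and 52.6% of the cells without one. In gamma-delta T cell-like cells the shares with Itgb7 were 89.5% and 85.7%. Cells with more UMIs are more likely to show both genes, so these shares describe joint detection and not pairing of subunits.

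Selplg, whose product P-selectin glycoprotein ligand starts leukocyte rolling, was present in every named leukocyte class. Microglia-like cells held 858 CPM (849 to 868), NK cell-like cells 648 (602 to 697), monocyte-like cells 608 (591 to 625), gamma-delta T cell-like cells 587 (538 to 639.8), CD8 T cell-like cells 550.2 (530.5 to 570.4) and CD4 T cell-like cells 498 (479.8 to 516). Conventional dendritic cell-like cells held 413 CPM (390.2 to 436) and type 2 innate lymphoid cell-like cells 325 (296 to 355). The 35 neutrophil-like cells had 1125 CPM (979.5 to 1286). All of these lay above the astrocyte-like background of 100 CPM (69.7 to 139). The level differed between clusters of the microglia-like class, as given further on: 2 of its 4 clusters lay above every named lymphoid class, and the Ccl8 cluster lay below CD4 T cell-like cells.

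The 563 T cell-like cells without a subset held Itga4 at 672 CPM (618 to 728.5) and Itgal at 473 CPM (428.5 to 521), above every named leukocyte class, and Itgb1 at 552 CPM (503 to 603), which overlapped the NK interval. Against CD4 T cell-like cells, Itgam stood 4.12-fold and Itgax 16.25-fold higher there. In these cells ribosomal protein genes took 15.2% of UMIs against 33.5%, mitochondrial genes 6.54% against 1.83%, and Malat1 75000 against 35170 CPM; their part in the member levels was not tested.

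T cell-like cells of all subsets were compared with microglia-like cells as the largest lymphoid and resident classes. Itga4 (61.0-fold), Itgb7 (60.6-fold), Itgal (42.4-fold) and Itgax (3.21-fold) were at least 2-fold higher in T cell-like cells, and Itgam was lower, at 39.0 against 874 CPM (log2 ratio -4.49). The microglial levels of these 4 higher genes were 5.11, 4.28, 6.51 and 5.62 CPM. Itgax exceeded its microglial level only in CD8 T cell-like cells (37.4 CPM) and T cell-like cells without a subset (31.2 CPM). CD4, gamma-delta and regulatory T cell-like cells held Itgax at 1.92, 1.12 and 2.07 CPM, the last 2 from 1 UMI each. Astrocyte-like cells held Itga4 at 5.72 and Itgb7 at 28.6 CPM, and 0 UMIs of Itgal and Itgax, which allows up to 10.5 CPM. That set is too shallow to tell whether the microglial UMIs are background. The folds are therefore not taken to measure a level in microglia. That is 4 members higher and 1 lower of 8, beside 17.4% higher and 28.3% lower among 13324 genes. The median log2 ratio was 1.115 for the members against -0.27 for all genes. Itgb2 (-0.42), Selplg (-0.70) and Itgb1 (0.55) differed by less than 2-fold on the log2 scale. The β1 and β2 chains thus differed less between these lineages than Itgal, Itgam, Itga4 or Itgb7.

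**Figure D3:**
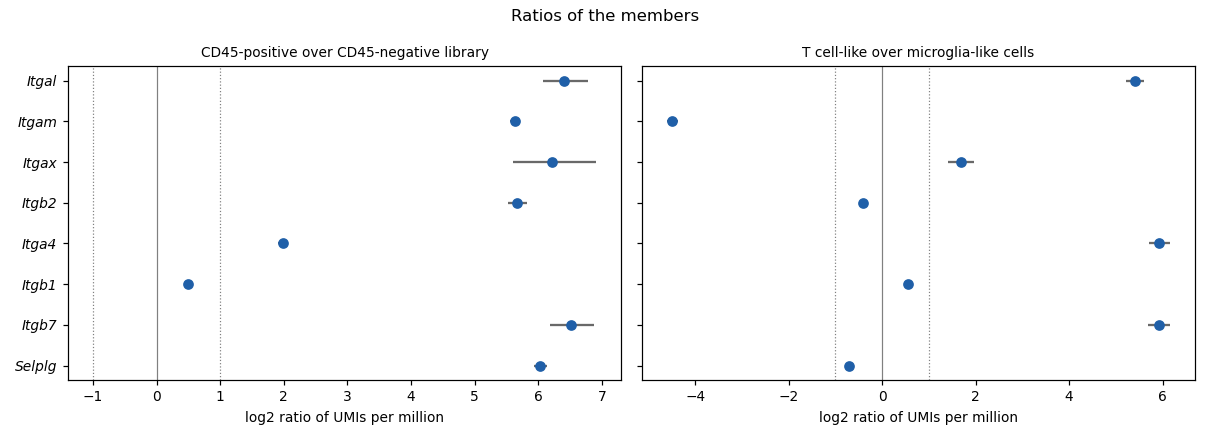
Log2 ratio of each member between the libraries (left) and between T cell-like and microglia-like cells of the CD45-positive library (right), with 95% exact conditional intervals for counting error; dotted lines mark 2-fold. On the left all but Itgb1, at 0.50, lie beyond 2-fold, with Itga4 next at 1.98; on the right Itgam lies at -4.49 and Itga4 at 5.93.

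Microglia-like cells fell into 4 clusters, described by leading genes: a P2ry12 cluster of 1113 cells, led by homeostatic microglia genes, a Lpl and Marco cluster of 702, a Tnf and Egr1 cluster of 256, and a Ccl8 cluster of 981. Selplg ranged most, from 1351 CPM (1331 to 1371) in the P2ry12 cluster through 962 in the Tnf cluster and 566 in the Lpl cluster to 360 in the Ccl8 cluster. Itgam stood at 933, 972, 1027 and 490.1 CPM in the same order, Itgb2 at 257, 278.5, 234.5 and 159 CPM, and Itgb1 at 296, 258, 286 and 185 CPM. Against the Ccl8 cluster the P2ry12 cluster had 1 of 8 members at least 2-fold higher, Selplg at 3.76-fold (3.61 to 3.92), and none lower, beside 40.9% and 1.98% of 11586 genes. The Ccl8 cluster had Malat1 at 1398 CPM, where the other 3 clusters had 20220 to 22690, and 27.3% ribosomal UMIs against 15.8% in the P2ry12 cluster. None of the 10 microglia markers used was among its leading genes, though all 10 were detected and summed to 7027 CPM against 15750 in the P2ry12 cluster. The part of these differences in its member levels was not tested. The P2ry12 over Lpl cluster ratios were 2.39 (2.32 to 2.46) for Selplg, 0.909 (0.885 to 0.933) for Itgam and 1.03 (0.985 to 1.08) for Itgb1. In the same order, these clusters had Malat1 at 22690 and 20220 CPM and ribosomal UMIs at 15.8% and 19.8%. Their microglia markers summed to 15750 and 9450 CPM, and the part of these values in the ratios was not tested.

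**Figure D4:**
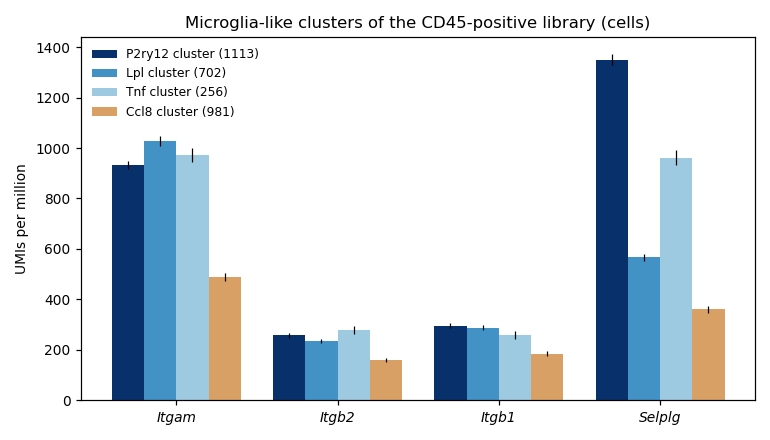
Level of 4 members in the 4 microglia-like clusters of the CD45-positive library, in CPM with 95% exact Poisson intervals and the number of cells in brackets. Selplg spans 360 to 1351, and the Ccl8 cluster is lowest for each of the 4 genes.

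The conventional dendritic class split into clusters led by Clec9a and Xcr1, markers of the cross-presenting type 1 lineage (91 cells), and clusters led by Cd209d and Ccl17 (147 cells). A cluster of 53 cells with neither was left out of this comparison, though Itgam was among the genes that set it apart. Of the 532 Itgam UMIs of the class, the Clec9a and Xcr1 clusters held 57 and the Cd209d and Ccl17 clusters 300. The class level and Itgam share given above include the left-out cluster. Itgam was 3.70-fold higher (2.78 to 5.01) in the Cd209d and Ccl17 clusters, at 187 against 50.4 CPM. Itgax was 1.94-fold higher (1.5 to 2.53) and Itgb1 1.74-fold (1.44 to 2.10), while Itgb7 was lower at 0.643 (0.550 to 0.751). Monocyte markers summed to 4813 CPM in the Cd209d and Ccl17 clusters and 2838 in the others, neutrophil markers to 272 and 49.5, and conventional dendritic markers to 1210 and 2834; their part in these differences was not tested. Itga4 and Selplg had ratios of 0.902 (0.736 to 1.11) and 0.992 (0.881 to 1.12), whose intervals include equal levels. Itgae, the αE subunit that pairs with β7 and binds E-cadherin, stood at 129.9 CPM in the Clec9a and Xcr1 clusters against 4.35 in the others, so both chains of that pair were higher in the same clusters.

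Migratory dendritic cell-like cells, named from Ccr7, Ccl22 and Fscn1 and numbering only 49, differed from conventional dendritic cell-like cells in most members. Itga4 stood at 475 CPM (409 to 549) and Itgb1 at 472 (406 to 546), against 142 and 208 CPM in conventional dendritic cell-like cells, or 3.35-fold (2.80 to 3.99) and 2.27-fold (1.91 to 2.68). Itgb2 stood at 18.2 CPM against 239.6, a ratio of 0.0758 (0.0304 to 0.157), and Itgax had 0 UMIs against 118 CPM. Itgb7 was at 28.6 CPM against 249.5, Itgam at 23.4 against 176 and Itgal at 13.0 against 30.1, the last from 5 UMIs. The 2 members higher and 5 lower by at least 2-fold stand beside 10.9% higher and 25.5% lower among 8580 genes. Itgb2, Itgam and Itgb7 were there at or under the astrocyte-like background. Fermt3 (kindlin-3), which leukocytes need to activate integrins, was also lower, at 54.5 against 208.5 CPM, while Selplg held 810 CPM. Ptprc, the gene of the sorted protein CD45, stood at 254 against 642 CPM.

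In the CD8 T cell-like class, a cluster of 306 cells marked by Ccr2, Ifitm1 and S100a4 was set beside one of 380 cells marked by Dapl1 and Bcl2. Itgax stood at 58.4 against 14.0 CPM, 4.18-fold (2.85 to 6.29), and Itgb7 at 338 against 161 CPM, 2.09-fold (1.85 to 2.37). Itgb1 was 1.57-fold (1.44 to 1.72), Itgal 1.51-fold (1.36 to 1.67) and Itgb2 1.35-fold (1.19 to 1.54) higher in the Ccr2 cluster, and Itga4 was lower, at 0.717 (0.642 to 0.801). The 2 members at least 2-fold higher and 0 lower stand beside 3.35% and 4.51% of 9192 genes. Fut7, which makes selectin ligands functional, stood at 10.25 CPM in the Ccr2 cluster against 2.12 in the Dapl1 cluster. Median depth was 7997.5 and 5820.5 UMIs. NK cell markers summed to 1856 CPM in the Ccr2 cluster and 749 in the Dapl1 cluster, and monocyte markers to 5212 and 1748. The monocyte list includes Ccr2 itself, so its sum partly follows from how the cluster was chosen. The part of these markers in the Itgax and other member levels was not tested. In the CD4 T cell-like class, a cluster marked by Gzmb, Ccl5 and Nkg7 (592 cells) had Itgal 1.36-fold (1.21 to 1.52) and Itgb2 1.37-fold (1.19 to 1.58) above, and Itga4 0.802 (0.734 to 0.877) of, a cluster marked by Tnfsf8 (572 cells). Itgb1 had a ratio of 0.985 (0.904 to 1.07) between them. Astrocyte markers summed to 67.8 CPM in the Tnfsf8 and 7.02 in the Gzmb cluster, monocyte markers to 375 and 1502, and NK cell markers to 62.1 and 189. The monocyte list includes Ly6c2 and Plac8, which also set the Gzmb cluster apart. The part of these markers was not tested. Clusters were chosen for these comparisons after their members' values were seen.

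**Figure D5:**
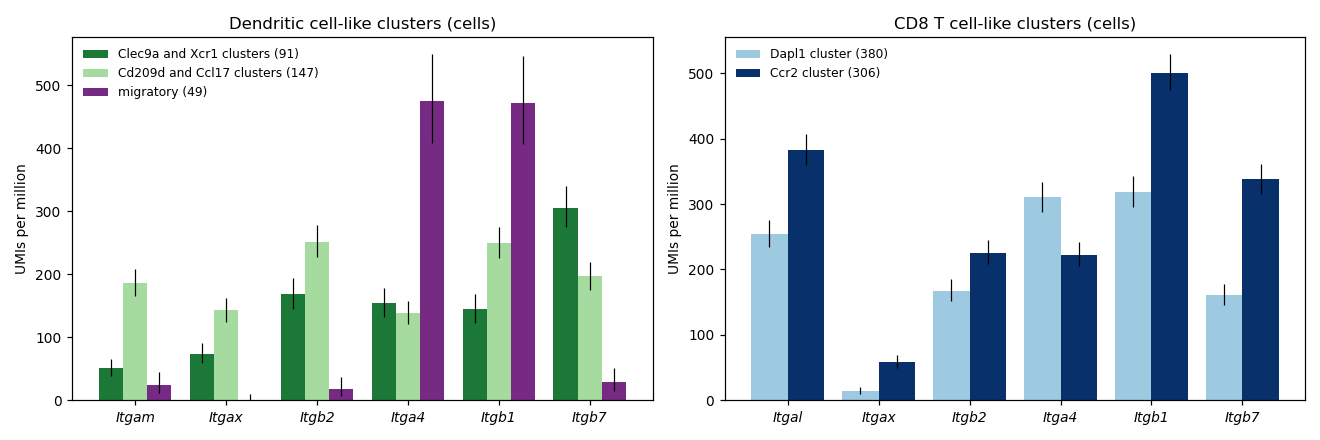
Level of members in dendritic cell-like clusters (left) and in 2 CD8 T cell-like clusters (right) of the CD45-positive library, in CPM with 95% exact Poisson intervals and cell numbers in brackets. Migratory cells sit at 475 for Itga4 but 18.2 for Itgb2, and the Ccr2 cluster sits above the Dapl1 cluster for every gene shown but Itga4.

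In the CD45-negative library the few cells in named immune classes held most UMIs of Itgal, Itgam, Itgb2 and Selplg. These 118 cells, 0.918% of the library, held 80.6% of the Itgal UMIs, 77.9% of Itgb2, 76.5% of Itgam and 70.9% of Selplg. Left out of the 118 were 13 cells with microglia markers at low UMIs and 15 with neutrophil and microglia markers together. The remaining UMIs are therefore not a measure of non-immune cells. The 118 cells also supplied part of the other members. They held 56.3% of Itgb7 (44.05 to 68.1) and 47.6% of Itgax (25.7 to 70.2), the latter from 21 UMIs in all, but 3.82% of Itga4 and 1.57% of Itgb1. The 65 microglia-like cells there held Itgam at 834 CPM (761 to 912) and Itgb2 at 239.7 (201 to 283), within counting error of their CD45-positive counterparts, with ratios of 0.954 (0.870 to 1.04) and 1.03 (0.865 to 1.22). Selplg was lower, at 563 CPM, a ratio of 0.656 (0.586 to 0.732). Of these cells, 35 belonged to the Ccl8 cluster.

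Among classes of 50 or more cells in the CD45-negative library, Itga4 was highest in the class named pericyte-like, after the contractile cells wrapped around capillaries. This class held 278 CPM (264 to 293) in 1401 cells, of which 54.1% had a UMI. The name depends on the cell filter: under the stricter filter 213 CD45-negative cells were named pericyte-like and 782 smooth muscle cell-like, and Myl9 and Tagln were among the leading genes of the larger of its 2 clusters. Both clusters held Itga4 at a like level, 277 CPM (261 to 293) in 951 cells and 286 (252 to 322.5) in 450 cells. Endothelial cell-like cells held 14.6 CPM (11.8 to 17.8), a 19.1-fold gap (15.5 to 23.7), and oligodendrocyte-like, neuroblast-like and astrocyte-like cells held 1.66, 1.39 and 0.722 CPM. The pericyte level was 0.806 (0.753 to 0.863) of that in CD4 T cell-like cells. T cell markers summed to 12.5 CPM in the pericyte-like cells, with 4 of 10 at 0, and Ptprc stood at 0.9645 CPM. Cerkl, which overlaps Itga4 on the other strand, stood at 7.91 CPM, and the 14 pericyte-like cells in the CD45-positive library held Itga4 at 243 CPM (129 to 416). Itgb1 was also highest in pericyte-like cells at 782 CPM (758 to 806), above endothelial cell-like cells at 519.5 (502 to 537) and fibroblast-like cells at 272 (235 to 312). Microglia-like, oligodendrocyte-like and neuroblast-like cells of this library held Itgb1 at 231, 149 and 124 CPM, and astrocyte-like cells at 98.25 (94.7 to 101.9). Itgb7 had 0 UMIs in the pericyte-like cells, which allows up to 0.712 CPM.

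Genes of the wider pathway were read from 6 lists. Between the libraries, 16.5% of all measured genes were at least 2-fold higher and 41.0% lower. Between T cell-like and microglia-like cells these shares were 17.4% and 28.3%. The lists are short, and their counts stand beside these shares without a test. Of 14 other integrin α subunits, 5 were at least 2-fold higher in the CD45-positive and 8 in the CD45-negative library, from Itga9 at the top (log2 ratio 4.38) to Itgad at the bottom (-6.00). Itgad encodes αD, a further partner of β2, and it was an oligodendrocyte transcript here, at 265 CPM (259 to 271) in oligodendrocyte-like cells against 0.447 in microglia-like and 2.605 in CD8 T cell-like cells. Itgb2 stood at 0.302 CPM in the same oligodendrocyte-like cells, so the transcript of the known β partner was near 0 there. Itga1, a collagen-binding subunit and the list's top gene between T cell-like and microglia-like cells (6.43), stood at 101 CPM in CD8 T cell-like and 0.810 in microglia-like cells; Itga9 was that comparison's lowest (-4.15). Between T cell-like and microglia-like cells, 4 of the 9 measured α subunits were at least 2-fold higher and 5 lower. Of 5 other β subunits, 4 were measured between the libraries, 2 of them at least 2-fold higher and 2 lower. Itgb3 was highest (4.60 between libraries, 1.06 between T cell-like and microglia-like cells), Itgb8 lowest between libraries (-6.13) and Itgb5 lowest between T cell-like and microglia-like cells (-4.57), as Itgb5 stood at 524 CPM in microglia-like cells.

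Of 16 genes that act on integrin activation from inside the cell, inhibitors such as Sharpin and Itgb1bp1 among them, 10 were at least 2-fold higher and 3 lower in the CD45-positive library. Skap1, a T cell adaptor, was highest (6.99), and Fermt2 (kindlin-2), the form used outside blood cells, was lowest (-6.45). Its blood-cell form Fermt3 stood at 254 against 5.74 CPM and was highest, among named classes of 50 or more cells, in microglia-like (284 CPM) and regulatory T cell-like cells (275 CPM). Astrocyte-like cells of the CD45-positive library held 51.45 CPM, near the 54.5 CPM of migratory dendritic cell-like cells. Between T cell-like and microglia-like cells 6 were higher and 2 lower, with Rasgrp1, an activator of the small GTPases upstream of integrins in T cells, at 6.70 and the adaptor Skap2 at -2.95.

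Of 10 enzymes that build selectin ligands, 7 were at least 2-fold higher and 2 lower in the CD45-positive library, with Gcnt1, which starts the branched sugar core, highest (4.98) and Tpst1, a tyrosine sulfotransferase, lowest (-1.40). Between T cell-like and microglia-like cells 3 were higher and 5 lower. Fut7, the fucosyltransferase that completes the selectin-binding sugar, was the highest at 6.47 (4.56 to 9.54), but from 66 and 2 UMIs, and stood at 4.94 against 0.0559 CPM. Fut4, a related fucosyltransferase, was the lowest (-4.36), from 2 and 110 UMIs. Microglia-like cells, the named class of 50 or more cells with the most Selplg, held 2 Fut7 UMIs in 3052 cells. Fut4 stood at 62.3 CPM in migratory dendritic cell-like cells against 6.94 in conventional ones, a gene and class chosen after the values were seen.

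Among 7 selectins and further selectin ligands, 2 were at least 2-fold higher and 3 lower in the CD45-positive library, beside 16.5% and 41.0% of all genes. So few genes near these shares are not read as a result about the list. The log2 ratios ran from Spn (CD43, 6.89) to Podxl (podocalyxin, -6.00). Spn was highest between T cell-like and microglia-like cells as well (6.17), and Glg1 lowest (-0.37). The selectins of vessel walls, Selp and Sele, stood at 24.9 and 32.8 CPM in endothelial cell-like cells.

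Of 11 ligands of the member integrins, 4 were at least 2-fold higher and 5 lower in the CD45-positive library, beside 16.5% and 41.0% of all genes. F11r (JAM-A) was highest (3.34) and Jam3 lowest (-3.76). Between T cell-like and microglia-like cells Thy1 was highest (6.40) and F11r lowest (-4.33). The vessel ligands were present on the CD45-negative side: endothelial cell-like cells held Vcam1 at 233 CPM, Icam1 at 117 and Icam2 at 255, and astrocyte-like cells held Vcam1 at 160.4 CPM. Madcam1, the mucosal ligand of the α4β7 pair, had 2 UMIs in 1443 endothelial cell-like cells.

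For each member the 3 genes of most similar level were found over 11 classes of the CD45-positive library with 50 or more cells, the T cell-like cells without a subset and the astrocyte-like cells among them, by Pearson's r of log2(CPM + 1) among 10980 genes. They were Shisa5, Psd4 and Ifi208 for Itgal (r 0.985 to 0.978), Arhgap15, Stk17b and Gm20559 for Itga4 (0.985 to 0.982), and Gpr132, Ccnd2 and P2ry10 for Itgb7 (0.973 to 0.961). For Itgam they were Rab3il1, Ncf1 and Ctsc (0.977 to 0.974), for Itgax B4galt5, Slamf7 and Apobr (0.953 to 0.897), and for Itgb2 Actr2, Lrch4 and Cybc1 (0.989 to 0.958). For Itgb1 they were Rab27a, Irgm2 and Otulin (0.937 to 0.923) and for Selplg Sipa1, Tram1 and Gm43696 (0.971 to 0.957). Among the members themselves Itgal and Itga4 were most alike (0.93), followed by Itga4 and Itgb7 (0.88) and Itgb2 and Selplg (0.87), and Itgam and Itgb7 were most unlike (-0.66). The classes share 1 library and several share a lineage, so these values only describe the order of levels.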

How the data were processed

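The authors deposited 2 matrices of raw UMI counts per gene and cell barcode, made with Cell Ranger 6.1.2 against mm10 per the submitters' processing notes. Whether the authors filtered cells further is not stated there. The deposited counts were used as they are. Barcodes with under 500 UMIs, under 200 genes or over 20% mitochondrial UMIs were removed (860 CD45-negative and 54 CD45-positive), then 804 and 175 Scrublet doublet calls (5.88% and 2.03%, against 11.6% and 6.93% expected at 0.8% per 1000 barcodes). Both libraries were clustered together with scanpy 1.11.5 and leidenalg 0.10.2 (2000 variable genes, of which 1978 remained without the members and pathway genes, 30 components, 15 neighbours, resolution 2), giving 34 clusters. Lymphoid, dendritic and neutrophil clusters were split again at resolution 1. A name needed 3 markers in at least 20% of cells and a positive mean fold over other families; the splitting of the dendritic and neutrophil clusters and the limits that leave mixed clusters unnamed were set after the clusters were seen.

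Levels are summed UMIs per 1000000 UMIs (CPM) with exact Poisson intervals; ratios have exact conditional binomial intervals and shares exact Clopper-Pearson ones, at 95%. The level that 0 UMIs allow is the upper Poisson limit, while the figure of levels by class and the ratios use a floor of 3 UMIs. Shares of cells with a UMI were repeated on cells randomly reduced to 1000 UMIs. A ratio counted as higher or lower from 2-fold, among genes with 20 or more UMIs in both sets together. With 1 library per group no test was run. Interval code was tested on simulated data. Genes named beside the members were those with the highest and lowest ratio in each pathway list, plus Itgae, Itgad, Fermt3 and Fut7; a further gene of this rule is not reported here. Other genes were chosen after their values were seen, among them Itgb5, Vcam1, Icam1, Icam2, Madcam1, Selp, Sele and Ptprc. The members and lists were chosen with earlier results of these data known. The alternatives were other cell filters, doublet calls kept, other scalings, per-cell means, other cluster resolutions, members in the clustering, the CD45-positive library alone and thinning, with 2 more added after seeing the data. Deposited barcodes found in both libraries numbered 27. Positions are from GRCm38 with GENCODE M21.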

Additional observations from a re-analysis of the deposited data

How the results depend on the processing

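No ratio changed sign under any alternative run. Between the libraries 29 of 56 alternative values stayed within the counting interval and 27 moved, by at most 1.23 on the log2 scale. TMM scaling raised every log2 ratio by 0.47 and median-of-ratios scaling by 0.52. With TMM the log2 ratios were 6.88 for Itgal, 6.1 for Itgam, 6.14 for Itgb2, 2.45 for Itga4, 0.97 for Itgb1, 6.99 for Itgb7 and 6.50 for Selplg, and with median of ratios 6.93, 6.15, 6.18, 2.50, 1.02, 7.04 and 6.55 in the same order, so that Itgb1 passed 2-fold under the latter, the 1 crossing seen. With the mean of per-cell CPM they were 7.64 for Itgal, 6.14 for Itgam, 7.30 for Itgax, 6.36 for Itgb2, 2.29 for Itga4, 0.54 for Itgb1, 7.58 for Itgb7 and 6.66 for Selplg. Keeping doublet calls gave 5.78 for Itgam and 6.17 for Selplg, no cell filter 5.78 and 6.19, and the stricter filter 1.90 for Itga4. Between T cell-like and microglia-like cells 55 of 64 values stayed within the interval and 9 moved, by at most 0.59. Doublet calls kept gave -4.67 for Itgam, and the mean of per-cell CPM 5.16 for Itgal, -3.90 for Itgam, 0.64 for Itgb1 and 5.47 for Itgb7. Leaving out the T cell-like cells without a subset and the Ccl8 cluster, chosen after seeing the data, gave -4.94 for Itgam, -0.56 for Itgb2, 0.39 for Itgb1 and -0.92 for Selplg. The scalings move every gene of a comparison by 1 shift by construction; elsewhere the cause was not tested. Thinned to 1000 UMIs, the share of cells with a UMI fell, as fewer UMIs must give, to 53.5% for Itgam in microglia-like and 27.8% for Itgal in CD8 T cell-like cells. No paired analysis was possible because each group has 1 library. Depth limits the small classes most, such as the 49 migratory dendritic cell-like and 35 neutrophil-like cells. No monocyte-like class was named at resolution 1, at resolution 3 or with doublet calls kept, and no conventional dendritic class at resolution 1. Ratios of these classes were not repeated under the alternatives.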
